A study of Homo sapiens with 10 samples.

Results

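The comparison set cells that had survived cisplatin against cells that had survived immobilization in silica gel, both after 2 weeks of recovery. The cells were of the established line OVCAR-3, derived from a human ovarian adenocarcinoma, and their total RNA was sequenced. Of the 10 libraries in the series, 4 made up the comparison, 2 biological replicates in each group. Treated cells had survived 24 hours in 0.5 uM cisplatin and then had 2 weeks to recover. Extracted cells had lived through 3 days in silica gel and were then taken back to standard culture for 2 weeks. Both groups came from 1 cell line grown in RPMI medium with fetal bovine serum. The 2 Control libraries, from standard culture, are given as levels and were not tested here. The 4 libraries of cells still in silica gel (Day1, 24 hours, and Day3, 3 days) entered only the estimate of the spread between replicates. Agent and length of exposure differed together between Treated and Extracted, so their parts in a difference cannot be told apart.

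Cisplatin is a platinum compound that damages DNA. It enters cells in part through the copper transporter SLC31A1, binds purine bases and is met by nucleotide excision repair, p53 signalling and thiol systems such as glutathione and thioredoxin. Interferon-stimulated genes are switched on when complexes that contain IRF9 bind DNA elements built on repeats of GAAA, and many of their products block virus replication. Epithelial cells of the reproductive tract also make secreted defence proteins, among them the calcium-binding S100A8 and S100A9, complement factors, lipocalin 2 and protease inhibitors. ID1 to ID4 are inhibitors of helix-loop-helix transcription factors and are standard targets of BMP signalling.

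Levels are in TPM, a length-corrected share of all transcripts, as the authors deposited them. A difference is Treated minus Extracted on the log2(TPM + 1) scale, which understates the change of genes with few TPM. It is given with its standard error (SE) from a limma fit, with n = 2 libraries in each group. A value with ± in brackets is this difference and its SE. A gene was tested if it had at least 1 TPM in at least 2 of the 10 libraries (15167 genes) and is said to be called higher or lower in Treated at an adjusted p under 0.05. A call is said to have held when it was kept in each of the 10 fits that left out 1 library.

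In Treated against Extracted 1836 genes were called (12.1% of those tested), 491 higher (3.24%) and 1345 lower (8.87%). In bulk RNA of this kind, fewer cells of a type and less RNA per cell cannot be told apart. The median difference of all genes was -0.13. In Treated replicate 2, small-RNA genes took 14.7% of all TPM, against 0.391% in Treated replicate 1 and 3.21% and 0.272% in Extracted replicates 1 and 2. Most of it came from 4 genes of 74 to 119 bases (MIR4655, RNU6-37P, RNU6-698P and MIR98), which made up 14.4% of that library and were listed at 0 in the other 3. With the libraries rescaled by the median of ratios, the median difference was 0.00 and 1682 genes were called (11.1%), 963 higher (6.35%) and 719 lower (4.74%). The share of higher calls was thus 26.7% as deposited and 57.3% rescaled. Both ways called 1209 genes (7.97%), all 491 of the higher ones and 718 of the lower ones. The size was 2-fold or more in 212 of the calls, of which 144 were higher and 68 lower.

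Single libraries moved these counts more than the scaling did. The number of calls was 246 without Extracted replicate 1, 166 without Extracted replicate 2, 3143 without Treated replicate 1 and 731 without Treated replicate 2. It was 1069 and 1070 without Control replicates 1 and 2, and 1091 and 1093 without Day3 replicates 1 and 2. The calls that held numbered 130 (0.857% of those tested), 82 higher and 48 lower in Treated, and all 130 were also called with the same sign after rescaling. In the fit of the 4 survivor libraries alone, 95 of the 130 were called, 68 higher and 27 lower. Across genes, the 2 Extracted libraries correlated at r = 0.9889 and the 2 Treated libraries at r = 0.9837, and the 4 pairs that crossed the groups at 0.975 to 0.9774. These values are across genes within libraries, and genes are not independent replicates.

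**Figure D1:**
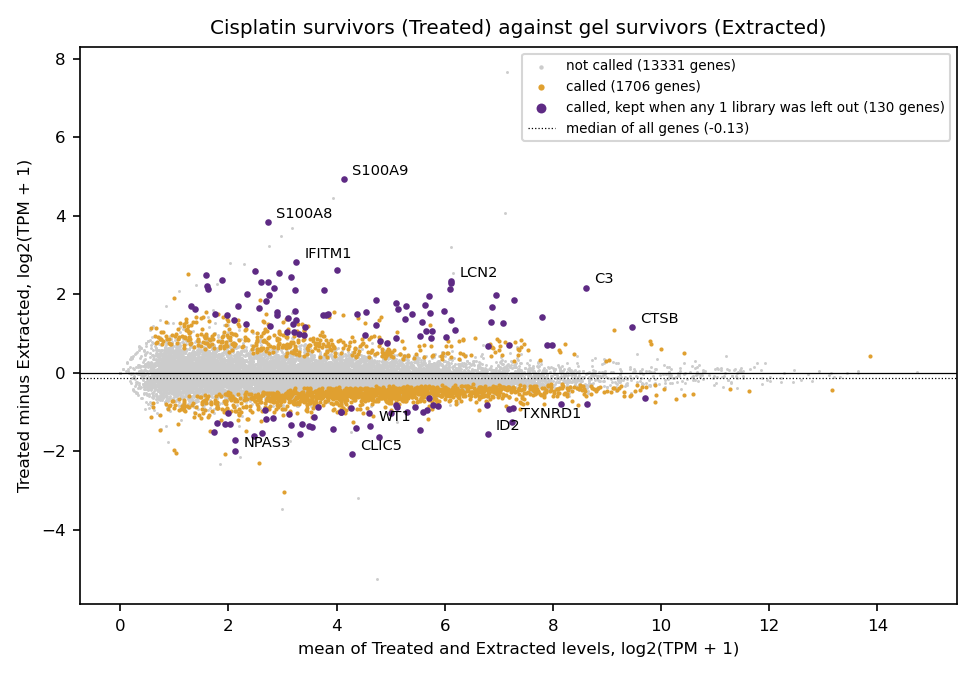
Each point is 1 of the 15167 genes tested, with the mean level of both groups on the x axis and Treated minus Extracted on the y axis, both as log2(TPM + 1). Purple points are the 130 genes whose calls held; S100A9, S100A8 and IFITM1 lie highest among those labelled and CLIC5 and NPAS3 lowest.

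Markers of the labelled cell type were present in all 4 libraries. The 12 markers of ovarian adenocarcinoma epithelium summed to 6183 and 6251 TPM in Extracted and 8533 and 7266 TPM in Treated, with EPCAM, KRT7, KRT8 and PAX8 all abundant. Leukocyte markers (12 genes) summed to 5.81 and 5.01 TPM in Extracted and 9.93 and 11.1 TPM in Treated. Of these, MS4A1, ITGAM, NKG7 and TYROBP were at 0 in all 4 libraries, PTPRC lay between 0.0344 and 0.192 TPM, and CD14 was called higher (0.251 and 0.257 against 1.31 and 1.21 TPM, 0.85). CD14 passed the filter only through the Treated libraries, so it had to differ. Fibroblast markers (10 genes) summed to 7.53 and 8.46 against 15.9 and 10.8 TPM, mostly COL1A1, and COL3A1 was at 0 in all 4. Endothelial, adipocyte and erythroid markers summed to at most 12.4 TPM in any of the 4 libraries, and neuroendocrine markers to between 65.0 and 77.5 TPM, mostly NCAM1.

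Interferon-stimulated genes were higher in Treated. Of 27 genes on that list, 25 were tested, and 18 of them were called higher and none lower, where 3.24% of all tested genes were called higher. OASL and XAF1 were too low to be tested, and OAS2 passed the filter only through the 2 Treated libraries. The median difference of the 25 was 0.98 as deposited and 1.13 rescaled, and 20 were called higher after rescaling. The call held for 10 of them: IFITM1, IFI27, IFI44L, IFIT1, IFI6, OAS1, IRF9, ISG15, IFI44 and IFITM2. The count of higher calls on the list was 12 without Extracted replicate 1, 11 without Extracted replicate 2 and 16 without either Treated replicate.

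The GAAA repeats that these genes are known for can be read in some of their promoters. The following stretches are the 150 bases before the RefSeq gene start (GRCh38.p14), 5′ to 3′ on the gene's own strand, for 6 of the 10 genes whose call held. Capitals mark matches to GAAANNGAAA, or to the same letters on the other strand. Overlapping matches run together. The 6 genes were taken by largest difference among those with a match in these bases, so each had to show one. For OAS1, IRF9 and IFITM2, whose calls also held, no match was found or no RefSeq promoter was matched.
IFITM1 (chr11:313890-314039, plus strand): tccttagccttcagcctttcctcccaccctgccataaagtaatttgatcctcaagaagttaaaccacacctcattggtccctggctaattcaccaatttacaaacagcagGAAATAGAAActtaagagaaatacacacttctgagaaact
IFI27 (chr14:94110586-94110735, plus strand): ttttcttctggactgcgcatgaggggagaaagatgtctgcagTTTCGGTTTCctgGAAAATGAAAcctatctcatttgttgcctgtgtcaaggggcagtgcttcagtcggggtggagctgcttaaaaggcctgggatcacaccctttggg
IFI44L (chr1:78620298-78620447, plus strand): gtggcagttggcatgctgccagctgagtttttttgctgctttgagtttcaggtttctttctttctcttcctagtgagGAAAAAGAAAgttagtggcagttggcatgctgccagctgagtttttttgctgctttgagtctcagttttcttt
IFIT1 (chr10:89392473-89392622, plus strand): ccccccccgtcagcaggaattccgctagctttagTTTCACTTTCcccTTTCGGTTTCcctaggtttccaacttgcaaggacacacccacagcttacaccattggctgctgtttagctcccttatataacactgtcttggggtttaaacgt
IFI6 (chr1:27672193-27672342, minus strand): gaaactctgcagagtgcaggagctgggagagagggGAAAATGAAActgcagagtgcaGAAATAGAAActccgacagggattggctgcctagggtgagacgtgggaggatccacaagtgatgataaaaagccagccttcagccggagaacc
ISG15 (chr1:1013347-1013496, plus strand): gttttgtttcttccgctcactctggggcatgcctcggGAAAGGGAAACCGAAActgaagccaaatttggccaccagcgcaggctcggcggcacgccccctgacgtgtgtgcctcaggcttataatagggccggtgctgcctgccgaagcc

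With both strands searched over 250 bases before the start, 13 of the 18 interferon-stimulated genes with a promoter in the RefSeq table held a match (72.2%). The 18 are those of the 25 tested genes that matched the table by symbol. A match was found in 839 of all 27305 promoters (3.07%) and in 239 of the 10525 promoters of tested genes (2.27%). Among genes called higher in Treated it was found in 19 of 316 (6.01%), 10 of which were interferon-stimulated genes of the list, and among genes called lower in 21 of 1083 (1.94%). A match describes these letters and is not evidence of binding.

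IFITM1, a membrane protein that hinders virus entry, had 2.73 and 2.42 TPM in the 2 Extracted libraries and 21.5 and 27.05 TPM in the 2 Treated libraries, a difference of 2.82 ± 0.22 (SE; adjusted p = 0.000171). IFI27 had 4.23 and 6.90 TPM in Extracted and 37.5 and 39.8 TPM in Treated (2.63 ± 0.20, adjusted p = 0.000171). In both genes the Treated libraries lay far above both Extracted libraries and above both Control libraries, which had 2.55 and 3.78 TPM of IFITM1 and 6.30 and 4.66 TPM of IFI27. IFI44L (2.71 and 0.871 against 12.01 and 12.3 TPM, 2.32 ± 0.32) and IFI6 (3.38 and 3.65 against 17.4 and 19.7 TPM, 2.11 ± 0.22) likewise had no overlap between the groups. IFIT1, which binds viral RNA that lacks cap methylation, had 2.36 and 2.37 against 14.8 and 13.3 TPM (2.16 ± 0.26). ISG15, a ubiquitin-like modifier and the most abundant of these 6, had 28.7 and 31.5 against 96.4 and 81.02 TPM (1.53 ± 0.12, adjusted p = 0.000177). Its Control libraries, at 19.2 and 18.8 TPM, lay below Extracted.

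Sensors and regulators of the pathway were called in part. OAS1, an enzyme that answers to double-stranded RNA, had 4.14 and 4.78 TPM in Extracted and 16.9 and 13.8 TPM in Treated (1.58 ± 0.15), and its relative OAS2 had 0.180 and 0.128 against 1.75 and 1.89 TPM (1.29 ± 0.33, adjusted p = 0.0363). IRF9, the DNA-binding part of the complex that drives these genes, had 14.9 and 10.4 against 42.8 and 34.8 TPM (1.56 ± 0.21) and IRF7 had 5.86 and 6.37 against 13.6 and 12.5 TPM (0.98 ± 0.15). Members not called included OAS3, DDX60, IRF1, USP18, IFIT5 and DDX58, with differences of 0.62, 0.53, 0.25, 0.02, 0.01 and -0.06. OAS3 was called higher after rescaling (0.76). DDX58 encodes the RNA sensor RIG-I, and its 4 libraries lay between 12.1 and 13.1 TPM.

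MX1 (1.55 ± 0.24), IFIT2 (1.09 ± 0.21), ISG20 (0.87 ± 0.14), IFITM3 (0.73 ± 0.12), IFIT3 (0.63 ± 0.17) and PARP9 (0.50 ± 0.10) were also called higher, but none of these 6 calls held. IFITM1, IFITM2 and IFITM3 are close copies of one another on chromosome 11, and how the authors' counting divided reads between such copies is not given in the sources used here. BST2, which tethers budding viruses to the cell and is itself interferon-inducible, was not on the list and was named for its size: 2.40 and 1.92 TPM in Extracted against 19.1 and 15.8 TPM in Treated (2.55 ± 0.19, adjusted p = 0.000171). Its call held.

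**Figure D2:**
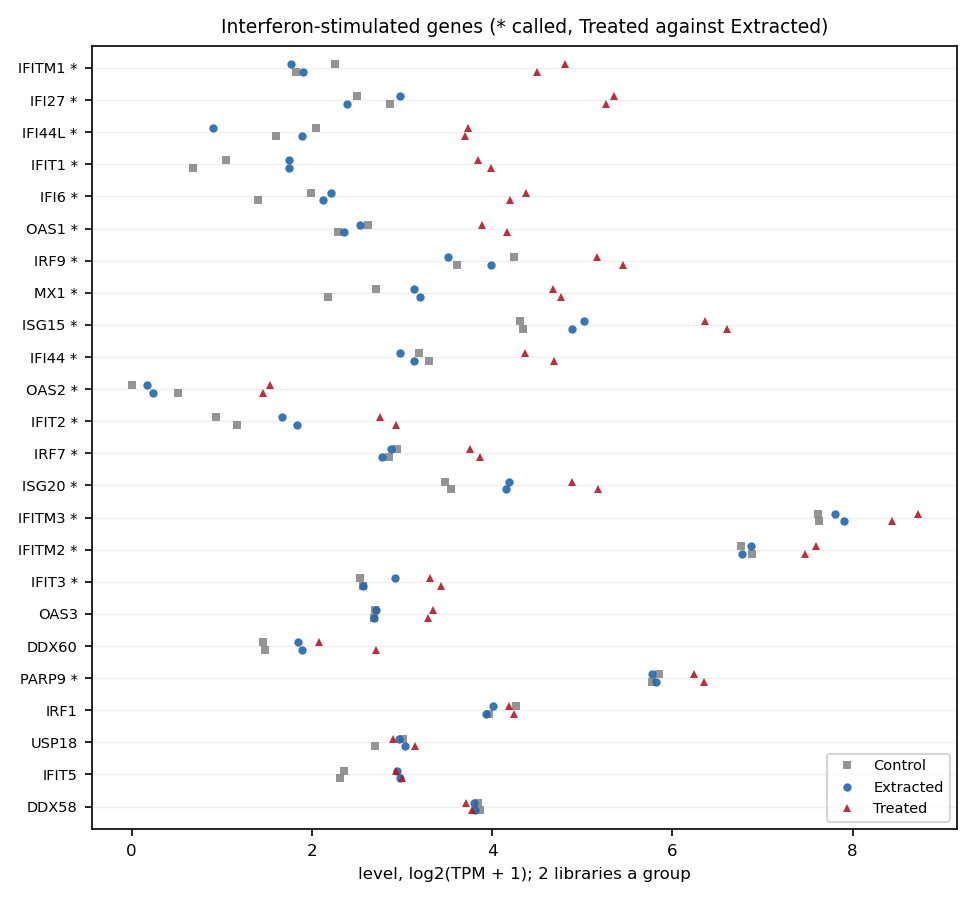
Levels of interferon-stimulated genes tested, as log2(TPM + 1), for the 2 Control, 2 Extracted and 2 Treated libraries, ordered by Treated minus Extracted; a star marks the 18 genes called. Treated points lie to the right of the other groups from IFITM1 down to PARP9, while DDX58 and IFIT5 overlap.

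Antigen presentation and cytokine genes differed in the same direction in smaller numbers, where 3.24% of all tested genes were called higher. Of 15 MHC class I and antigen-processing genes, 3 were called higher and none lower, among them HLA-B (48.7 and 49.7 against 90.4 and 82.8 TPM, 0.80 ± 0.19) and HLA-E (0.50 ± 0.10). HLA genes are near-identical in parts, so their values are uncertain, and none of the 3 calls held (1 and 2 higher calls without Treated replicates 1 and 2, none without either Extracted replicate). Of 21 NF-kB targets and cytokines tested, 6 were called higher and none lower. They were the neutrophil attractants CXCL2 (9.30 and 9.59 against 29.6 and 26.4 TPM, 1.47 ± 0.26), CXCL3 (1.28 ± 0.30) and CXCL1 (89.3 and 95.1 against 174 and 163 TPM, 0.86 ± 0.18), the adhesion molecule ICAM1 (0.83 ± 0.16), TNFAIP2 (0.74 ± 0.14) and CCL28 (0.71 ± 0.11). CXCL1 to CXCL3 resemble one another closely, so the division between them is uncertain. CXCL8 (18.5 and 24.05 against 29.9 and 28.2 TPM) and IL6 (9.77 and 11.4 against 9.64 and 9.77 TPM) were not called. None of the 6 calls held; the list had 5 and 2 higher calls without Treated replicates 1 and 2, and 0 and 1 without Extracted replicates 1 and 2.

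Secreted defence proteins and S100 genes had the highest median of the gene lists. Of 25 on the list, 21 were tested. Of these, 18 were called higher, where 3.24% of all tested genes were, and 1 lower, and 11 of the higher calls held. The median difference was 1.41 as deposited and 1.56 rescaled. SAA2, S100A7 and BPIFB1 passed the filter only through the Treated libraries, so they had to differ. These genes are among the 21 and enter the counts and the median. Without Extracted replicate 1 or 2 the list kept 12 higher calls, and without Treated replicates 1 and 2 it had 16 and 17.

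S100A9 (chromosome 1, 153357854 to 153361027, GRCh38) had 2.35 and 2.03 TPM in the Extracted libraries and 90.3 and 101.4 TPM in the Treated libraries, a difference of 4.92 ± 0.19 (SE; adjusted p = 2.28e-06), the largest among the genes that the naming rule covers. Its partner S100A8, with which it forms the zinc-binding heterodimer calprotectin, had 0.838 and 0.640 against 20.9 and 27.4 TPM (3.84 ± 0.21, adjusted p = 5.25e-05). Extracted lay at the Control level in both genes (2.56 and 2.20 TPM of S100A9 and 0.791 and 0.196 TPM of S100A8), and no Treated library came near either group. Myeloid cells make both proteins too. The 12 leukocyte markers, given above, summed to 5.81 and 5.01 TPM in Extracted and 9.93 and 11.1 TPM in Treated, with CD14 called higher and ITGAM and TYROBP at 0 in all 4 libraries; their part in the S100A8 and S100A9 levels was not tested.

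LCN2, lipocalin 2, which binds bacterial iron carriers, had 26.7 and 33.4 TPM in Extracted and 149 and 159 TPM in Treated (2.33 ± 0.18). The acute-phase genes SAA1 (0.496 and 2.18 against 15.3 and 9.89 TPM, 2.61 ± 0.41) and SAA2 (0.116 and 0.747 against 6.16 and 4.77 TPM, 2.20 ± 0.28) are close copies of each other, so the split between them is uncertain. The call of SAA1 was lost without Extracted replicate 1. That of SAA2 held, but SAA2 passed the filter only through the Treated libraries. C3, the central complement component, was abundant: 171 and 193 TPM in Extracted, 981 and 688 TPM in Treated and 199.8 and 226 TPM in Control (2.17 ± 0.15, adjusted p = 0.000132). CFB, the complement factor that joins C3 in the alternative pathway, had 3.89 and 2.92 against 11.5 and 11.9 TPM (1.54 ± 0.15). For C3 and CFB the Treated libraries lay above all Extracted and Control libraries, and Extracted lay below Control.

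PI3, which encodes the elastase inhibitor elafin, had 25.2 and 39.04 TPM in Extracted and 139 and 143 TPM in Treated (2.13 ± 0.19), with Control lower still at 8.88 and 8.29 TPM. SLPI, a related inhibitor, had 662 and 679 against 1359.8 and 1012 TPM (0.81 ± 0.12), a call that did not hold. S100A7 was listed at 0 in both Extracted and both Control libraries and had 4.21 and 1.70 TPM in Treated.

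Other S100 genes differed by less. S100A14 had 57.1 and 64.3 against 275 and 213 TPM (1.98 ± 0.13, adjusted p = 0.0001), S100A4 139 and 131 against 382 and 338 TPM (1.41 ± 0.11) and S100A1 69.6 and 75.4 against 200.4 and 159 TPM (1.29 ± 0.17). These 3 calls held, as did that of S100A16 (0.70 ± 0.09). S100A2 (0.89 ± 0.14), S100A6 (0.60 ± 0.12) and S100A13 (0.54 ± 0.15) were higher by calls that did not hold. S100A10, the partner of annexin A2, went the other way, with 1618 and 1751 TPM in Extracted and 1225 and 1037 TPM in Treated (-0.58 ± 0.10, adjusted p = 0.009), lower on both scales but lost without either Extracted replicate. S100A11 (0.13) and WFDC2 (0.05), which encodes the serum marker HE4, were not called.

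**Figure D3:**
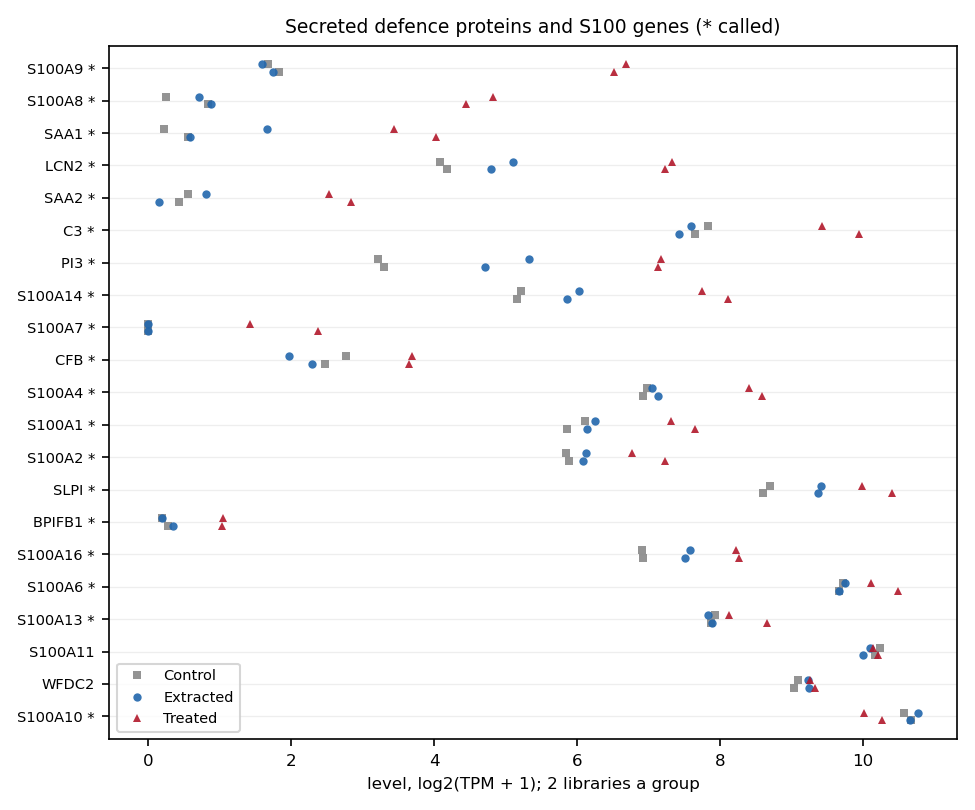
Levels of the 21 secreted defence and S100 genes tested, as log2(TPM + 1), for the 2 Control, 2 Extracted and 2 Treated libraries, ordered by Treated minus Extracted; a star marks a call. The Treated points of S100A9 (90.3 and 101.4 TPM) and S100A8 stand far to the right of the Control and Extracted points, while those of S100A10 stand to the left.

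Keratin genes were also higher in part. Of 14 keratins tested 6 were called higher and none lower, and 2 calls held. Of all genes tested 3.24% were called higher, or 6.35% after rescaling. KRT81, a hair keratin with closely similar relatives, had 5.33 and 5.72 TPM in Extracted and 28.1 and 26.3 TPM in Treated (2.11 ± 0.20), and KRT4, of stratified mucosa, had 34.98 and 36.1 against 119 and 98.9 TPM (1.58 ± 0.23). KRT19 (376 and 387 against 883 and 739 TPM, 1.08 ± 0.17), KRT18, KRT6A and KRT16 were called higher without holding. After rescaling 9 keratins were called, and the list had 5 higher calls without either Treated replicate and 2 without either Extracted replicate.

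Markers of ovarian carcinoma split. Of 17 tested, 5 were called higher and 3 lower, beside 3.24% and 8.87% of all genes tested. CP, ceruloplasmin, had 85.1 and 75.8 TPM in Extracted and 358 and 241 TPM in Treated (1.86 ± 0.20), and the mucin MUC1 had 24.01 and 21.99 against 56.4 and 65.3 TPM (1.36 ± 0.12); both calls held. MUC16, which carries the antigen CA125, had 57.2 and 61.3 against 104 and 112 TPM (0.85 ± 0.17, adjusted p = 0.0171), and MSLN, to which it binds, 157 and 144 against 252 and 202 TPM (0.58 ± 0.13). Neither of these calls held. WT1, a transcription factor used to recognise serous ovarian carcinoma, had 39.8 and 36.4 TPM in Extracted and 15.3 and 13.4 TPM in Treated (-1.35 ± 0.18, adjusted p = 0.00313), a lower call that held, against 46.3 and 52.8 TPM in Control. LYPD1 (-0.74 ± 0.15) and CD47 (-0.58 ± 0.09) were also called lower, without holding. The list had 5 and 4 higher calls without Treated replicates 1 and 2, and 2 without either Extracted replicate. KLK6 (44.8 and 48.3 against 95.5 and 82.3 TPM, 0.92 ± 0.10) was the 1 kallikrein called of 7 tested, and it held.

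Mesenchymal genes did not move as 1 group. Of 20 genes on the list 13 were tested, and ZEB1, ZEB2, SNAI2 and TWIST2 were among those too low. Of the 13 tested, 6 were called higher and 2 lower, and 3 higher calls held. Over all genes tested 3.24% were called higher and 8.87% lower. FN1, fibronectin, had 78.97 and 92.96 TPM in Extracted, 229.6 and 189 TPM in Treated and 207 and 219 TPM in Control (1.27 ± 0.12), so that Extracted was the low group and the Treated libraries lay on either side of Control. LOXL2, a collagen crosslinking enzyme, had 5.48 and 6.49 against 13.8 and 11.96 TPM (0.99 ± 0.14) and S100A4 is given above. TGFBI (1.25 ± 0.20), SPARC (0.98 ± 0.23) and ITGA5 (0.78 ± 0.17) were called higher, CDH2 (-0.92 ± 0.17) and TNC (-0.96 ± 0.15) lower, and none of these 5 held. VIM (2.04 and 2.08 against 2.42 and 1.91 TPM, 0.05) and CDH1 (66.8 and 65.3 against 67.6 and 62.6 TPM, -0.02, 95% interval -0.22 to 0.18) were not called. The list had 6 and 5 higher calls without Treated replicates 1 and 2, and 4 and 3 without Extracted replicates 1 and 2.

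The few calls among junction genes were mostly lower, as were those over all genes as deposited, where 8.87% of genes were called lower. The list as a whole was not shifted down. Its median difference was -0.10, or 0.06 rescaled, against -0.13 and 0.00 over all genes. Of 25 tested 1 was called higher (TJP3, 0.75 ± 0.13) and 6 lower (among them CLDN1, TJP1, OCLN, DSP and PKP2), of which 4 remained lower after rescaling and none held. Of 24 integrin and basement membrane genes, 5 were called higher and 2 lower, beside 3.24% and 8.87% of all genes tested. COL17A1, the hemidesmosome collagen, had 1.57 and 2.42 TPM in Extracted and 13.1 and 14.1 TPM in Treated (2.30 ± 0.21), a call that held. Those of ITGA5, HSPG2, LAMB2, ITGB5 (-0.93 ± 0.24) and ITGA6 did not. Without an Extracted replicate the junction list had no calls and the integrin list only 2.

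Of 17 TGF-beta and BMP targets tested, 8 were called lower in Treated and 3 higher, with the same counts after rescaling. Only 2 of the lower calls and none of the higher ones held. Over all genes tested 8.87% were called lower and 3.24% higher, or 4.74% and 6.35% after rescaling. The median difference of the list was -0.60 (-0.44 rescaled), against -0.13 and 0.00 over all genes. ID2 had 187 and 192 TPM in Extracted and 64.4 and 62.8 TPM in Treated (-1.56 ± 0.12, adjusted p = 0.000171), and ID4 had 32.6 and 32.1 against 13.3 and 10.1 TPM (-1.41 ± 0.13, adjusted p = 0.000386). Both calls held, and the Control libraries lay above both groups at 316 and 344 TPM of ID2 and 47.9 and 51.1 TPM of ID4. ID1 (466 and 467 against 279 and 250.1 TPM, -0.82 ± 0.12) and ID3 (-0.71 ± 0.16) were lower too, as were SMAD6 (-0.96 ± 0.15), SMAD7 (-0.64 ± 0.13) and SMAD9 (-0.72 ± 0.17), of which SMAD6 and SMAD7 inhibit the pathway. GREM1, a secreted BMP antagonist, had 4.002 and 4.57 against 1.18 and 0.635 TPM (-1.48 ± 0.30). TGFBI, TGFB1 (0.88 ± 0.14) and TGFBR2 (0.38 ± 0.10) were the 3 called higher. The list had 9 and 4 lower calls without Treated replicates 1 and 2, and 4 and 2 without Extracted replicates 1 and 2.

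Ligands of the EGF receptor family went both ways, where 3.24% of all tested genes were called higher and 8.87% lower. AREG, amphiregulin, had 22.5 and 30.3 TPM in Extracted and 102 and 77.3 TPM in Treated (1.73 ± 0.23), a call that held, against 5.62 and 5.25 TPM in Control. EREG, epiregulin, was low in all 4 libraries and higher in Treated (0.372 and 0.585 against 2.76 and 2.50 TPM, 1.30 ± 0.20); it passed the filter only through Treated, and its call was lost without Extracted replicate 1. HBEGF (-0.93 ± 0.21) and the neuregulins NRG1 (29.2 and 32.4 against 17.9 and 11.97 TPM, -1.02 ± 0.19) and NRG2 (-0.71 ± 0.14), which bind ERBB3 and ERBB4, were called lower. Of the receptors, ERBB3 was called higher (0.44 ± 0.09) and ERBB4 lower (-0.97 ± 0.24). Of the 13 genes tested the 4 lower calls were 4, 0, 1 and 0 without Treated replicates 1 and 2 and Extracted replicates 1 and 2, and the 3 higher calls 3, 3, 1 and 2.

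H19, an imprinted long noncoding RNA, had 33.6 and 27.3 TPM in Extracted, 149 and 154 TPM in Treated and 90.97 and 111 TPM in Control (2.29 ± 0.21, adjusted p = 0.000381; the call held). IGF2, its neighbour, was low throughout and had 0.578 and 0.594 against 2.29 and 2.94 TPM (1.18 ± 0.25), with 2.06 and 2.13 TPM in Control. For both genes Extracted was the lowest of the 3 groups. IGFBP2 (-0.44 ± 0.12) was the 1 other call among 16 IGF system genes, lower as deposited and lost after rescaling. The calls of IGF2 and IGFBP2 were lost without Extracted replicate 1 or 2.

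Retinoid genes gave 4 higher calls and 1 lower among 15 tested, beside 3.24% and 8.87% of all genes tested. DHRS3, which turns retinal back into retinol, had 12.5 and 10.2 TPM in Extracted and 36.6 and 31.1 TPM in Treated (1.49 ± 0.15), and its call held. RARRES3 (1.49 ± 0.24) and RARRES2 (0.77 ± 0.13) were higher and CRABP1 (-1.08 ± 0.26) lower, without holding. DHRS9, another retinol dehydrogenase, was named for its size, with 1.06 and 1.53 against 13.9 and 11.8 TPM (2.60 ± 0.20), and held. The list had 4 higher calls without either Treated replicate, and 2 and 3 without Extracted replicates 1 and 2.

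The other genes named for the size of their rise were CDA, C8orf31 and MMP7, and all 3 calls held. CDA, cytidine deaminase, an enzyme that inactivates the drug gemcitabine, had 2.47 and 3.15 TPM in Extracted and 17.7 and 21.7 TPM in Treated (2.44 ± 0.23). MMP7, the metalloprotease matrilysin, had 0 and 0.541 against 7.16 and 4.95 TPM (2.49 ± 0.25). C8orf31 had 0.875 and 0.372 against 7.67 and 6.94 TPM (2.37 ± 0.27), and it passed the filter only through Treated. Single members of further lists whose higher call held were the lactate exporter SLC16A3 (23.9 and 24.6 against 68.9 and 70.3 TPM, 1.48 ± 0.16) and the lysosomal protease CTSB (435 and 501 against 1073 and 1025 TPM, 1.17 ± 0.09). CD44, a hyaluronan receptor often used as a stem-cell marker, had 26.7 and 41.3 TPM in Extracted, 84.96 and 73.4 TPM in Treated and 11.7 and 10.6 TPM in Control (1.23 ± 0.22), and its call was lost without Extracted replicate 1. It was the 1 call among 16 stem-cell-associated genes.

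The largest lower differences were in genes of varied function. CLIC5, an ion channel and cytoskeleton-linked protein, had 42.3 and 35.2 TPM in Extracted and 9.05 and 7.87 TPM in Treated (-2.07 ± 0.18, adjusted p = 0.000353), against 62.96 and 72.8 TPM in Control. NPAS3, a neuronal transcription factor, had 7.33 and 8.09 against 1.27 and 1.08 TPM (-2.00 ± 0.12, adjusted p = 7.31e-05) and NTNG1, a netrin relative, 8.36 and 5.53 against 1.44 and 1.31 TPM (-1.72 ± 0.17). In each of the 3 the Treated libraries lay below all Extracted and Control libraries. FLG, filaggrin, had 42.6 and 52.5 against 16.5 and 12.5 TPM (-1.65 ± 0.17), DOC2B, a calcium sensor of secretion, 9.20 and 8.33 against 2.16 and 2.19 TPM (-1.62 ± 0.13) and the autophagy kinase ULK2 9.97 and 8.93 against 2.92 and 2.35 TPM (-1.53 ± 0.14). DOK5 (-1.55 ± 0.12), AMIGO2 (-1.45 ± 0.14) and CRISPLD2 (-1.42 ± 0.15) were lower as well. All of these calls held. EDN2, endothelin 2, had 6.77 and 7.64 against 1.19 and 2.86 TPM (-1.50 ± 0.36, adjusted p = 0.0287); its call was lost after rescaling and without Treated replicate 1, Extracted replicate 1 or Extracted replicate 2.

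**Figure D4:**
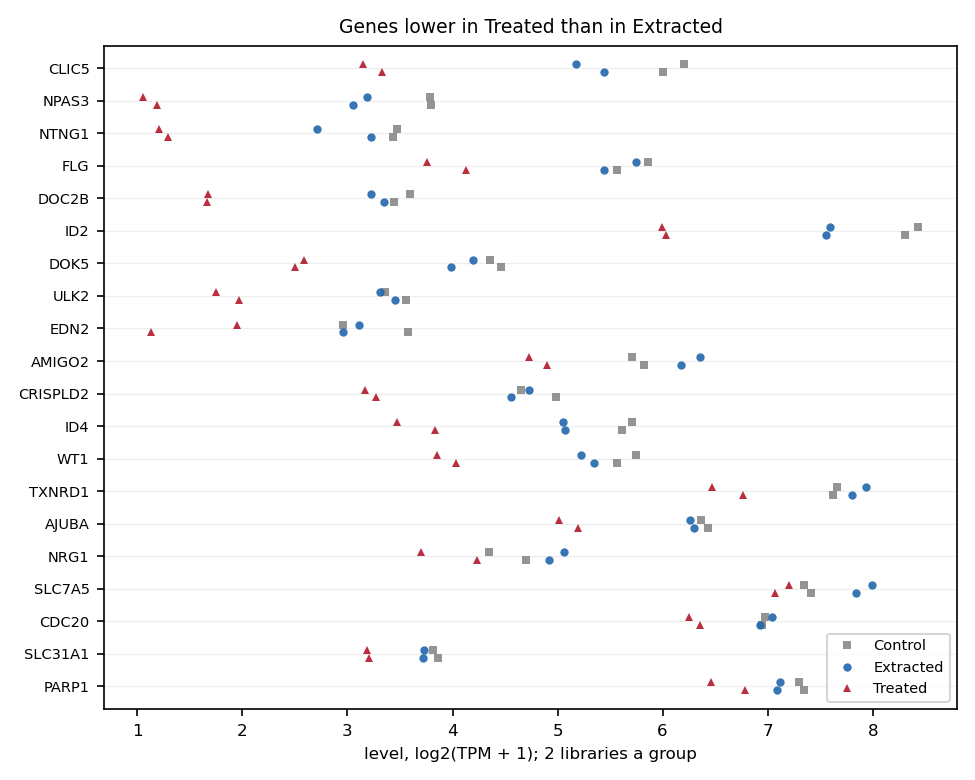
Levels of 20 genes called lower in Treated, as log2(TPM + 1), for the 2 Control, 2 Extracted and 2 Treated libraries, ordered by Treated minus Extracted. The Treated points lie left of the Extracted points in every row, farthest in CLIC5 and NPAS3 and least far in PARP1 and SLC31A1.

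Some glutathione and NRF2 target genes were lower in Treated. Of 22 tested, 7 were called lower and 2 higher (4 and 3 after rescaling). Over all genes 8.87% were called lower, or 4.74% after rescaling. The list as a whole lay near the other genes, with a median difference of -0.17, or -0.03 rescaled, against -0.13 and 0.00 over all genes. TXNRD1, thioredoxin reductase 1, had 222 and 244 TPM in Extracted, 108 and 87.4 TPM in Treated and 196 and 202 TPM in Control (-1.25 ± 0.13, adjusted p = 0.000858), and was the 1 call of the list that held. ME1 (-0.81 ± 0.14), NQO1 (135 and 142 against 89.9 and 78.4 TPM, -0.71 ± 0.11) and the cystine importer SLC7A11 (-0.65 ± 0.15) were lower on both scales. GCLM (-0.59), SRXN1 (-0.36) and NFE2L2 (-0.26), the gene of NRF2 itself, were lower as deposited but not called at these rescaled differences. The ferritin chains FTH1 (12576 and 13054 against 18488 and 16091 TPM, 0.43 ± 0.10) and FTL (0.32 ± 0.08) were higher. Lower calls on the list numbered 6 and 4 without Treated replicates 1 and 2, and 4 and 1 without Extracted replicates 1 and 2.

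Genes of platinum entry, export and repair showed few calls, at numbers near the share over all genes tested. Of all genes 3.24% were called higher and 8.87% lower. SLC31A1, the copper transporter CTR1, had 12.1 and 12.2 TPM in Extracted and 8.23 and 8.13 TPM in Treated (-0.52 ± 0.12, adjusted p = 0.0217). It was the 1 call among 11 platinum and copper handling genes. SLC31A1 lies on chromosome 9 between 110 and 120 Mb, the window with the lowest rescaled median (-0.33), described below. Its own rescaled difference was -0.38, and whether it differed apart from its neighbours was not tested. The copper exporters ATP7A (0.06) and ATP7B (-0.30) were not called. None of 8 drug efflux transporters was called; ABCC1 had 24.5 and 25.4 against 25.97 and 23.4 TPM (95% interval of the difference -0.30 to 0.26), and ABCB1 was too low to be tested. Of 11 genes on the metallothionein list only 5 were tested, as MT1A, MT1E, MT1G, MT1H, MT1M and MT3 were too low. No metallothionein among those tested was called. The zinc exporter SLC30A1, also on that list (-0.45 ± 0.12), was lower as deposited and not after rescaling. Of 29 repair genes 2 were called lower, among them PARP1 (135 and 138 against 109 and 87.2 TPM, -0.48 ± 0.11), which was lower after rescaling too. ERCC1 (0.16; 95% interval -0.14 to 0.45) and BRCA1 (-0.23; 95% interval -0.63 to 0.17) were not called. None of these lists kept a call without Extracted replicate 1 or 2.

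Among 24 p53 target genes 1 was called higher and 1 lower, which is not far from the shares over all genes. Of all genes tested 3.24% were called higher and 8.87% lower, or 6.35% and 4.74% after rescaling. CDKN1A, the cell-cycle inhibitor p21, had 2.65 and 2.76 TPM in Extracted, 6.01 and 5.21 TPM in Treated and 3.45 and 5.69 TPM in Control (0.83 ± 0.19, adjusted p = 0.0228). Treated lay above Extracted and overlapped Control, and the call was lost without any 1 of the 4 survivor libraries. PMAIP1, which encodes NOXA, had 16.4 and 17.4 against 11.8 and 8.06 TPM (-0.73 ± 0.19). Apoptosis regulators gave 7 lower calls of 22 (3 after rescaling: XIAP -0.91 ± 0.22, HRK -0.87 ± 0.20 and PMAIP1), with both inhibitors (XIAP, BIRC5, BCL2L1) and promoters (PMAIP1, HRK, BAK1) of cell death among them. No call on either list was left without Extracted replicate 1 or 2.

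Cell-division genes were lower in Treated by small amounts. Of 25 mitosis genes 14 were called lower and none higher, where 8.87% of all genes were called lower; the median difference was -0.43, or -0.28 with 12 calls after rescaling. CDC20, which activates the anaphase-promoting complex, had 120.5 and 130.2 TPM in Extracted and 80.7 and 75.2 TPM in Treated (-0.68 ± 0.09, adjusted p = 0.00292). CDCA8 (35.3 and 37.05 against 22.95 and 22.1 TPM, -0.66 ± 0.11), CCNB1 (-0.64 ± 0.11) and CDK1 (-0.60 ± 0.09) were close to it, and CENPE had 25.6 and 17.4 against 13.5 and 9.80 TPM (-0.82 ± 0.20). The groups did not overlap in any of these 5 genes, but the 5 were picked from those called lower, so this adds nothing to the calls. MKI67, the proliferation antigen, had 54.4 and 58.98 against 49.2 and 42.5 TPM and was not called (-0.30 ± 0.18, adjusted p = 0.273; 95% interval -0.69 to 0.09). None of the calls held: the list had 23 and 7 lower calls without Treated replicates 1 and 2, and 1 and 0 without Extracted replicates 1 and 2. Of 25 DNA replication genes 6 were called lower (4 after rescaling), led by MCM4 (-0.58 ± 0.13) and CDC6 (-0.57 ± 0.10), with 16, 2, 0 and 0 in the same 4 fits. Of 14 CDK inhibitors and G1 cyclins, CDKN1B (-0.45 ± 0.11) and CDKN3 (-0.37 ± 0.10) were called lower beside the higher CDKN1A, and the call of CDKN3 was lost after rescaling. Of 11 histone genes 3 were called lower, HIST1H2BJ by the most (-0.88 ± 0.20). After rescaling HIST1H2BJ stayed lower, HIST1H2BC and HIST1H2BK were not called and HIST1H1C was called higher (0.37), and without Extracted replicate 1 or 2 the list had no calls.

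Calls on the stress and metabolic lists were lower ones for the most part, as were 1345 of all 1836 calls as deposited. Many were lost after rescaling. Over all genes tested 8.87% were called lower as deposited and 4.74% after rescaling. None of 13 mitochondrially encoded mRNAs was called (MT-CO1 0.05, 95% interval -0.46 to 0.57) and none of 28 ribosomal protein genes. Of 25 nuclear respiratory-chain genes 9 were called lower, NDUFA4 by the most (-0.67 ± 0.12), and 0 after rescaling. Cholesterol synthesis genes gave 7 lower calls of 20, 2 of them after rescaling, among them IDI1 (36.2 and 35.7 against 25.8 and 21.5 TPM, -0.59 ± 0.11). ATF4 and amino-acid response genes gave 4 lower and 1 higher of 20, and all 5 calls were kept after rescaling. The amino-acid transporter SLC7A5 had 227 and 254 against 134 and 146 TPM (-0.78 ± 0.13), ASNS (-0.74 ± 0.15) and CHAC1 (-0.75 ± 0.12) were lower too, while NUPR1 was higher (0.99 ± 0.23). None of the calls in these lists held.

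Of the remaining stress lists, heat-shock chaperones gave 1 higher and 3 lower calls of 15, beside 3.24% higher and 8.87% lower over all genes. HSPB1, which encodes HSP27, was the higher one, with 692 and 706 TPM in Extracted and 1142 and 1178 TPM in Treated (0.73 ± 0.14), and HSPA1B, a near-identical copy of HSPA1A, was lower (-0.56 ± 0.11). Among 18 hypoxia-response genes NDRG1 was higher (124 and 128 against 271 and 187 TPM, 0.83 ± 0.17) and EGLN3 lower (-0.63 ± 0.12), and among 17 glycolytic genes ALDOC was higher (1.05 ± 0.17) beside SLC16A3, with GPI lower (-0.56 ± 0.11). SEL1L (-0.46 ± 0.12) was the 1 call of 18 ER genes, and THRSP (1.19 ± 0.20) and SREBF1 (0.42 ± 0.10) were the higher of 3 calls among 13 fatty-acid synthesis genes. Apart from SLC16A3, none of these calls held, and each was lost without Extracted replicate 2.

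On the signalling lists and those left over, the calls are given as single genes and not as results about the lists. Of all genes tested 3.24% were called higher and 8.87% lower, or 6.35% and 4.74% after rescaling. AJUBA, a LIM protein that restrains LATS kinases, had 77.8 and 75.4 TPM in Extracted and 35.5 and 31.3 TPM in Treated (-1.18 ± 0.18), and AXL, a receptor tyrosine kinase, was higher (2.55 and 3.05 against 5.89 and 5.78 TPM, 0.85 ± 0.17); they were the 2 calls among 15 YAP target genes. DUSP5 (0.51 ± 0.14) was higher and DUSP1 (-0.64 ± 0.12) and DUSP4 (-0.75 ± 0.16) lower among 18 MAP kinase feedback genes, and EGR3 (0.97 ± 0.24) higher and FOSL2 (-0.44 ± 0.10) lower among 18 immediate-early genes; EGR3 passed the filter only with the Treated libraries. AXIN2 (0.69 ± 0.19) was the 1 WNT call of 19, joined by 5 more after rescaling, and LFNG (-0.91 ± 0.19) and JAG1 (-0.47 ± 0.12) were the lower calls among 15 NOTCH genes. Of 20 actin and tropomyosin genes 5 were called lower, CALD1 (-0.63 ± 0.15) and TPM1 (-0.60 ± 0.15) by the most. TXNIP (5.80 and 4.91 against 16.03 and 12.1 TPM, 1.23 ± 0.20) was higher and THBS1 (-0.96 ± 0.22) lower among 18 quiescence genes, and NEAT1 (0.66 ± 0.16) higher and OIP5-AS1 (-0.61 ± 0.11) lower among 7 nuclear long noncoding RNAs. LAMP2 (-0.32 ± 0.09) was lower beside the higher CTSB among 19 autophagy and lysosome genes, and lost after rescaling. Every call of this paragraph except that of CTSB was lost without Extracted replicate 2.

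**Figure D5:**
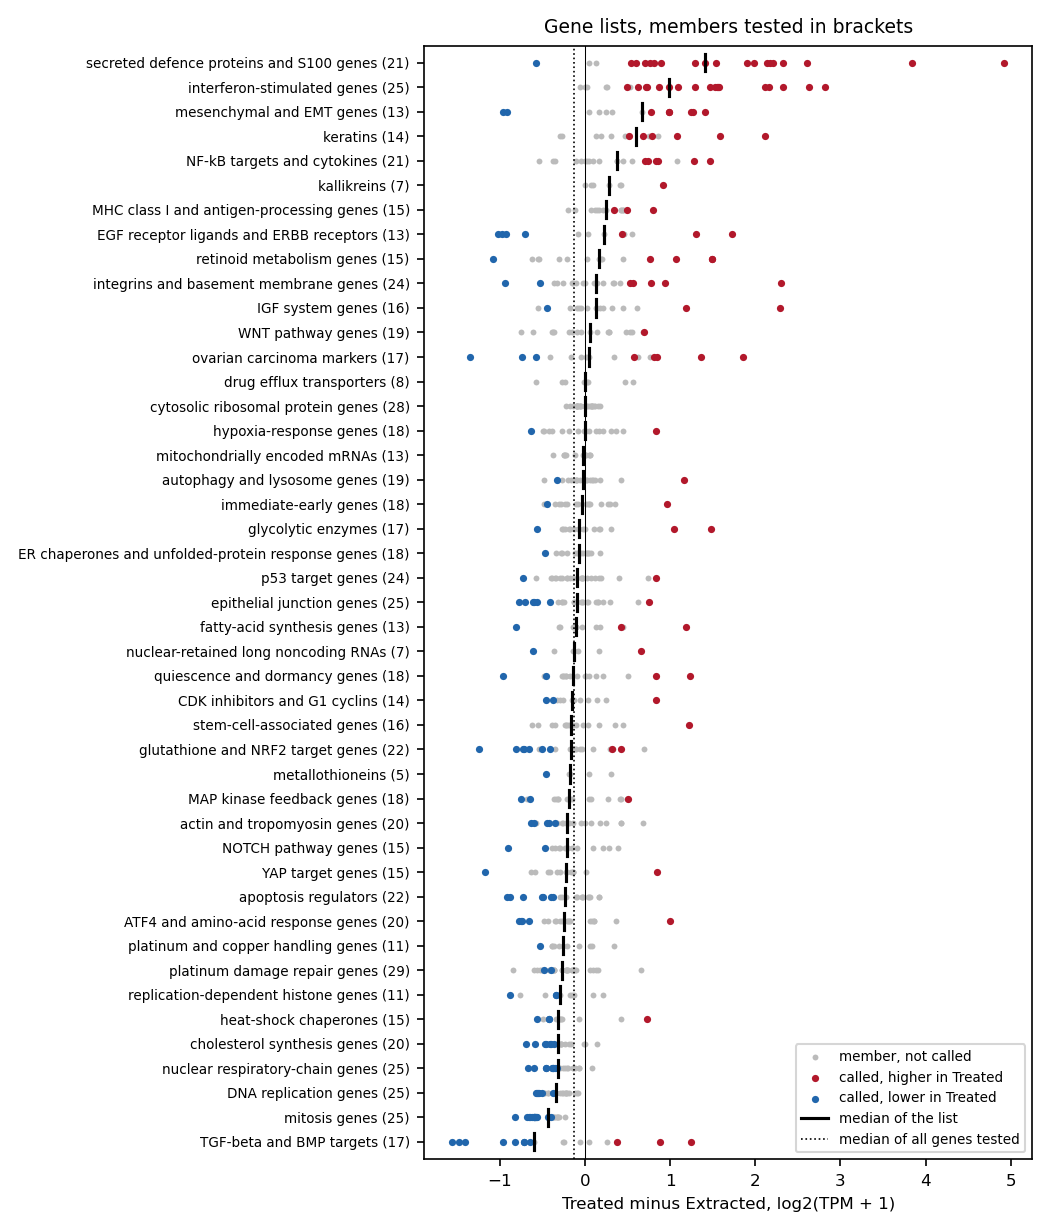
Treated minus Extracted, as log2(TPM + 1), for the tested members of each gene list, with red points called higher, blue points called lower and grey points not called; black bars are list medians and the dotted line is the median of all genes, -0.13. The lists of secreted defence and S100 genes (median 1.41) and interferon-stimulated genes (0.98) lie farthest right, and TGF-beta and BMP targets (-0.60) farthest left.

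Control levels were nearer to Extracted than to Treated in most genes whose calls held. Of the 82 genes higher in Treated whose calls held, the Control mean was nearer the Extracted mean in 78, and of the 48 lower ones in 47. Control lay beyond Extracted, on the side away from Treated, in 50 of the 82 and 38 of the 48, so that in these genes Extracted too differed from Control in the direction of Treated. These are counts of levels with no test, over genes chosen for differing between Treated and Extracted. H19 and FN1, given above, are among the exceptions.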

How the data were processed

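Total RNA of OVCAR-3 cells was sequenced in 5 groups of 2 biological replicates, mapped to groups by the sample titles. The authors deposited TPM per gene, a length-corrected unit with the same total in each library. Per the submitters' processing notes, Trimmomatic, STAR, Cufflinks and GRCh38 were used. No source used here gives versions or how the values were computed. TPM keep no read counts, so depth is unknown and no counting error is given. The table held 349 blank lines and 58313 entries, of which 91 shared an identifier and were summed, leaving 58222 genes. Of these, 57959 (99.55%) were found in GENCODE release 29, which gave positions and gene types.

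Genes that reached 1 TPM in 2 or more of the 10 libraries were tested on log2(TPM + 1) with limma 3.58.1 in R 4.3.3 (eBayes with trend, two-sided, Benjamini-Hochberg over 15167 genes). All 10 libraries were fitted with 1 coefficient per group, so that the groups shared 1 estimate of the spread (5 residual degrees of freedom). The script was tested on simulated data. Python 3.11.15 with pandas 2.3.3 and NumPy 2.4.6 made the summaries and Matplotlib 3.10.9 the figures. Promoter sequences came from RefSeq (GRCh38.p14), matched by symbol.

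The comparison and the gene lists were chosen with earlier results of these data known. Lists are described by counts and medians, without a set test. The genes named were, among calls with a mean of at least 5 TPM in the higher group, the 12 largest rises and 12 largest falls, leaving out clone-like names, pseudogenes and small-RNA genes. To these came the 3 called members of each list with the largest change, or the 2 most abundant where none was called, and CDKN1A, MKI67, MUC16, VIM, CDH1, ABCB1 and MT-CO1. Other genes in the text were picked after their values were seen, and some items are not reported here. Alternative settings were 3 rescalings, filters at 5 TPM or at none, a pseudocount of 0.1, a fit of the 4 survivor libraries, a 2-fold minimum, the replicate block and each library left out.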

Additional observations from a re-analysis of the deposited data

How the results depend on the processing

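Against 1836 calls (491 higher, 1345 lower) as deposited, no filter gave 1018 calls (343 higher, 675 lower), the fit of the 4 survivor libraries 129 (92 and 37) and a 2-fold minimum 212 (144 and 68). Median-of-ratios rescaling gave 963 higher and 719 lower calls, and nuclear protein-coding genes rescaled gave 937 higher and 1087 lower. With small-RNA genes removed there were 730 higher and 1011 lower calls. The share of higher calls was 26.7% as deposited and 57.3%, 46.3% and 41.9% under these 3 rescalings, and 71.3% in the fit of the 4 survivor libraries. Leaving out 1 library at a time gave 166 to 3143 calls, 104 to 577 higher and 62 to 2787 lower. The lowest and highest totals came without Extracted replicate 2 and Treated replicate 1. A pseudocount of 0.1 and a filter at 5 TPM kept each count within 1.5 times. The cause of these movements was not tested.

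With the replicate block, 1775 genes were called (458 higher, 1317 lower). The deviations of same-numbered libraries from their group means correlated at -0.022 between Extracted and Treated and at -0.017 to 0.087 between the other groups. No pairing is stated in the sources used here. These values cannot tell whether same-numbered libraries shared a culture or a day. Of the 135 genes named by rule, 121 were called, and no alternative reversed the direction of a call. Of the 135, 18 lost their call with median-of-ratios rescaling, 79 in the fit of the 4 survivor libraries, 77 when Extracted replicate 1 was left out, 79 when Extracted replicate 2 was, 12 when Treated replicate 1 was and 49 when Treated replicate 2 was. With 2 libraries a group no outlying library could be tested for, and with depth unknown, genes of few TPM are the least certain.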

Other observations

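The groupings here were chosen after the values were seen and carry no test beyond the calls of single genes. Neighbouring genes were among the calls that held. Of the metalloproteases on chromosome 11, MMP1 (0.321 and 0.612 TPM in Extracted against 5.60 and 5.15 TPM in Treated, 2.13 ± 0.21 SE) and MMP10 (3.46 and 3.52 against 11.9 and 11.1 TPM, 1.48 ± 0.13) were higher beside MMP7; MMP1 passed the filter only with the Treated libraries. GUCY1A3 (4.93 and 4.44 against 1.89 and 1.71 TPM, -1.02 ± 0.14) and GUCY1B3 (16.5 and 13.9 against 5.27 and 5.71 TPM, -1.31 ± 0.17), the subunits of the nitric oxide receptor guanylate cyclase, were both lower. Other single genes with lower calls were as follows. GABRA2, a GABA receptor subunit, had 16.4 and 17.8 TPM in Extracted and 6.05 and 6.07 TPM in Treated (-1.35 ± 0.15), NRXN3, a neurexin, 4.23 and 4.53 against 1.40 and 1.03 TPM (-1.29 ± 0.15) and NEGR1 6.57 and 4.39 against 1.64 and 1.51 TPM (-1.31 ± 0.18). Single genes outside the lists with higher calls included TNFSF10, the death ligand TRAIL (6.40 and 8.68 against 23.9 and 21.6 TPM, 1.49 ± 0.15), VTCN1, the inhibitory ligand B7-H4 (18.1 and 16.5 against 67.4 and 57.3 TPM, 1.79 ± 0.13) and SERPINA1, the elastase inhibitor antitrypsin (23.3 and 27.8 against 99.01 and 103 TPM, 1.95 ± 0.12). These 10 genes were picked among the calls that held. Their groups did not overlap, which adds nothing to the calls.

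Lower calls were unevenly spread over the genome. This was looked at over 10050 protein-coding genes with at least 5 TPM. On chromosome 9, 108 of 411 such genes were called lower (26.3%, against 12% over all chromosomes) and 5 higher. After rescaling 67 of the 411 were lower, against 639 of 10050, and the median rescaled difference was -0.16. In the 191 windows of 10 Mb with at least 20 genes, the lowest medians were at 110 to 120 Mb (-0.33 rescaled, with 12 of 27 genes lower, or 9 after rescaling) and 90 to 100 Mb (-0.28 rescaled, with 16 of 44 lower, or 13 after rescaling) of chromosome 9. In the first of these the median rescaled level relative to Control was 0.03 and 0.05 in Extracted replicates 1 and 2 and -0.24 in each Treated replicate. The highest median of the windows was 0.23, on chromosome 21 at 40 to 50 Mb. Over all windows the SD of the medians was 0.0989 for Treated minus Extracted, 0.0703 between the Treated replicates and 0.0391 between the Extracted replicates. The first is over differences between means of 2 libraries and the others over differences between single libraries. They are unlike measures and cannot be set against one another directly. The genes of a window share libraries and base composition, and DNA copy number was not measured in the files used here.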
